A study of Mus musculus with 151 samples.

Results

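The rows of 4 transcripts without an established function, *Gm36669*, *Gm36684*, *1700029N11Rik* and *1600022D10Rik*, were followed cell by cell through the count table, which held 55291 genes in single cochlear hair cells of 3 groups. They were chosen by name for a near on-off pattern between the groups of cells, so their group levels are a description and no test of them was made. All 4 were present in the table, which held 30558 genes with a Gm number or a RIKEN clone name as symbol.

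The groups were 50 inner hair cells (IHCs) of wild-type mice at P30 (P30_WT IHC), 55 of such cells at P14 (P14_WT IHC) and 46 induced outer hair cells at P14 (P14_iOHC). Outer hair cells of wild-type mice were not among them. All mice were C57BL/6 and carried vGlut3-P2A-iCreER/+ and the Tdtomato reporter Ai9/+. Tamoxifen was given to the neonates, so that the Cre recombinase made from the *Slc17a8* (vGlut3) locus turned on the reporter in IHCs. The P14_iOHC mice carried in addition 1 floxed and 1 null allele of *Tbx2*, the gene of a T-box transcription factor. The iOHCs therefore came from a germ-line heterozygous background in which Cre could remove exon 2 of the remaining copy, and the counts per gene do not show in which cells this had happened. Tdtomato+ cells were picked by hand, and of the *Tbx2* mutants the smaller ones were taken. Each library is 1 cell, and the number of mice is not given in the sources used here, so each group stands as 1 sample. No p-value is given, SDs describe the spread over cells, and differences between groups cannot be told apart from differences between animals or preparations.

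IHCs pass sound signals to the auditory nerve through ribbon synapses filled with glutamate by vGlut3. Outer hair cells (OHCs) amplify sound with the motor protein Prestin, encoded by *Slc26a5*, and depend on the zinc-finger factor *Ikzf2* for their maturation. Long non-coding RNAs often follow a cell type closely, and symbols made of a Gm number or a RIKEN clone name mark genes that have not been given a function. Nothing is assumed here about what the 4 transcripts do.

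Of the 4 symbols, 3 were found in the RefSeq table of GRCm38.p6, each as a long non-coding RNA on the plus strand, and 2 in GENCODE M21. *Gm36669* spans chr6:16777524-16788820 in GENCODE (identifier ENSMUSG00000107022.1) with 3 exons that sum to 3650 bases. *1700029N11Rik* spans chr13:44439712-44469030 (ENSMUSG00000098144.8), with 3 transcripts whose merged exons sum to 1248 bases. *Gm36684* is given by RefSeq at chr17:13170494-13331222, a span of 160729 bases. The fourth transcript is *1600022D10Rik*.

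The start windows of these 3 transcripts are shown because *Gm36669* and *1700029N11Rik* share the pattern of being present in IHCs and nearly absent in iOHCs, the cells from *Tbx2* mutants. Each window is RefSeq sequence of GRCm38.p6 and holds 250 bases before the annotated start in lower case and the first 50 transcribed bases in capitals. They lie at chr6:16777274-16777573 for *Gm36669*, chr13:44439477-44439776 for *1700029N11Rik* and chr17:13170244-13170543 for *Gm36684*, all on the plus strand.
Gm36669: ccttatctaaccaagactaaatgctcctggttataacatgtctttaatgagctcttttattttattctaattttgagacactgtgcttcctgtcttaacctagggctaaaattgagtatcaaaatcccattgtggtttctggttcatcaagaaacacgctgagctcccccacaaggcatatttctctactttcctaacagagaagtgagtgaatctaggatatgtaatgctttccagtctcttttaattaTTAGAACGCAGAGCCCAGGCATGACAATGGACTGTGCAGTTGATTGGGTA
1700029N11Rik: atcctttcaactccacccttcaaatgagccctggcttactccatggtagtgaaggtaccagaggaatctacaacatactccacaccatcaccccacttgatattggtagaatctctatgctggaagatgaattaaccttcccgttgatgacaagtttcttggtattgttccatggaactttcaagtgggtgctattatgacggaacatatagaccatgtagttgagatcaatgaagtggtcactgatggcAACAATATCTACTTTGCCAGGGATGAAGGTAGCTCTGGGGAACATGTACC
Gm36684: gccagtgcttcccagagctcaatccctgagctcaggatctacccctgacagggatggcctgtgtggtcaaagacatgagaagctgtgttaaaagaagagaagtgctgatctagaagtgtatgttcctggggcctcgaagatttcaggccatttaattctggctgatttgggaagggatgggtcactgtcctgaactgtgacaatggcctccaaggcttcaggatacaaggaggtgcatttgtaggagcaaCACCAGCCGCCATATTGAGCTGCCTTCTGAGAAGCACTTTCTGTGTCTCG

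Letters of 4 motifs were searched on both strands of these windows. The T-box site AGGTGTGA was in none of the 3 windows and in 1.28% of the 32851 windows of the table. Its core GGTGTG, which the longer site contains, was found once, on the minus strand of the *1700029N11Rik* window, 170 bases before the start, and in 19% of all windows. The core of the Ikaros family, TGGGAA, was found in the *Gm36684* window 83 bases before the start on the plus strand and 242 bases before it on the minus strand, against 25.6% of all windows. The E-box CAGCTG, of the type bound by *Atoh1*, was in none of the 3 and in 16.3% of all windows. The *Gm36669* window held none of the 4 motifs. A match or its lack describes the letters of these windows only.

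The window of *1700029N11Rik* lies entirely inside the processed pseudogene *Gm27036* on the opposite strand. Its 300 bases were identical to the complement of that pseudogene, and 281 aligned bases of it were 73.7% identical to the complement of *Gapdh*, the gene of a glycolytic enzyme. Exons of *1700029N11Rik* shared 102 bases with *Gm27036* and 80 bases with the long intergenic RNA *Gm27007*, both on the minus strand. Whether the counting used strand is not stated, so reads in these bases cannot be assigned to one strand with certainty.

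The libraries were deep. Totals per cell ran from 4326416 to 25035444 counts, and fell into 51 shallower libraries, none above 10267217, and 100 deeper ones, none below 11814928, called the lower and the upper set here. In the P14_WT IHCs the lower set was cells 1 to 16 and in the P30_WT IHCs cells 1 to 23, while the P14_iOHC set of 12 was spread over cells 1 to 18. CPM is the count divided by the total of the cell and multiplied by 1000000, and 3 counts were worth 0.120 to 0.693 CPM. *Tbx2*, the targeted gene, had 260 ± 127 CPM in P14_WT IHCs (SD, n = 55 cells), 193 ± 103 in P30_WT IHCs (SD, n = 50 cells) and 69.3 ± 87.4 in P14_iOHCs (SD, n = 46 cells), with medians of 240.3, 167 and 41.4 CPM. The groups overlapped, and 3 libraries labelled P14_iOHC, cells 1, 18 and 44, were above the P14_WT median, with 268, 264 and 427 CPM. In these 3 the level of the targeted gene was not low. Counts per gene include the other exons, so these levels do not show whether exon 2 had been removed there. All 10 hair cell markers of a fixed list were seen in at least 50% of the cells of every group. The summed IHC markers (*Slc17a8*, *Otof*, *Slc7a14*, *Tbx2*, *Calb2*, *Fgf8*, *Atp2a3*) had medians of 22571 CPM in P14_WT IHCs, 21705 in P30_WT IHCs and 2414 in P14_iOHCs. The summed OHC list had medians of 870, 501 and 45543 CPM in the same order. Of the OHC markers *Slc26a5* was counted in 46 P14_iOHCs and *Ikzf2* in 45, at means of 1146 and 309 CPM. They were counted in 2 and 1 of the P14_WT IHCs and 2 and 5 of the P30_WT IHCs. Other listed OHC markers were counted in many wild-type cells: *Sri* in 55 of 55 P14_WT and 48 of 50 P30_WT IHCs, and *Ocm* in 54 and 47. *Lbh* was in 13 and 7 of them, and *Bcl11b* was at 0 in every P14 cell. Of 12 supporting-cell markers, 9 were seen in at least 50% of the P14_iOHCs, against 1 in the P14_WT IHCs and 4 in the P30_WT IHCs, with summed levels of 2226 to 20848, 3721 to 9145 and 1002 to 8609 CPM.

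A few libraries stood apart and are named before the results that rest on them. P30_WT IHC cells 35 to 38 and 43 to 50, 12 libraries of the upper set, carried nearly all of the *Gm36684* of their group. P14_iOHC cell 18 carried nearly all of the *Gm36684* of the iOHCs, and P14_iOHC cell 1 all of their *1700029N11Rik*. Both of these libraries labelled P14_iOHC belonged to the lower set, are among the 3 with *Tbx2* above the P14_WT median, and had high levels of IHC genes: the summed IHC markers were the highest of the 46 iOHCs in cell 1 (22776 CPM) and ranked 3 in cell 18 (9434 CPM). P14_WT IHC cells 13, 14 and 15 carried all of the *1600022D10Rik* of the wild-type cells. The levels and ratios that rest on these libraries are given with and without them.

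**Figure D1:**
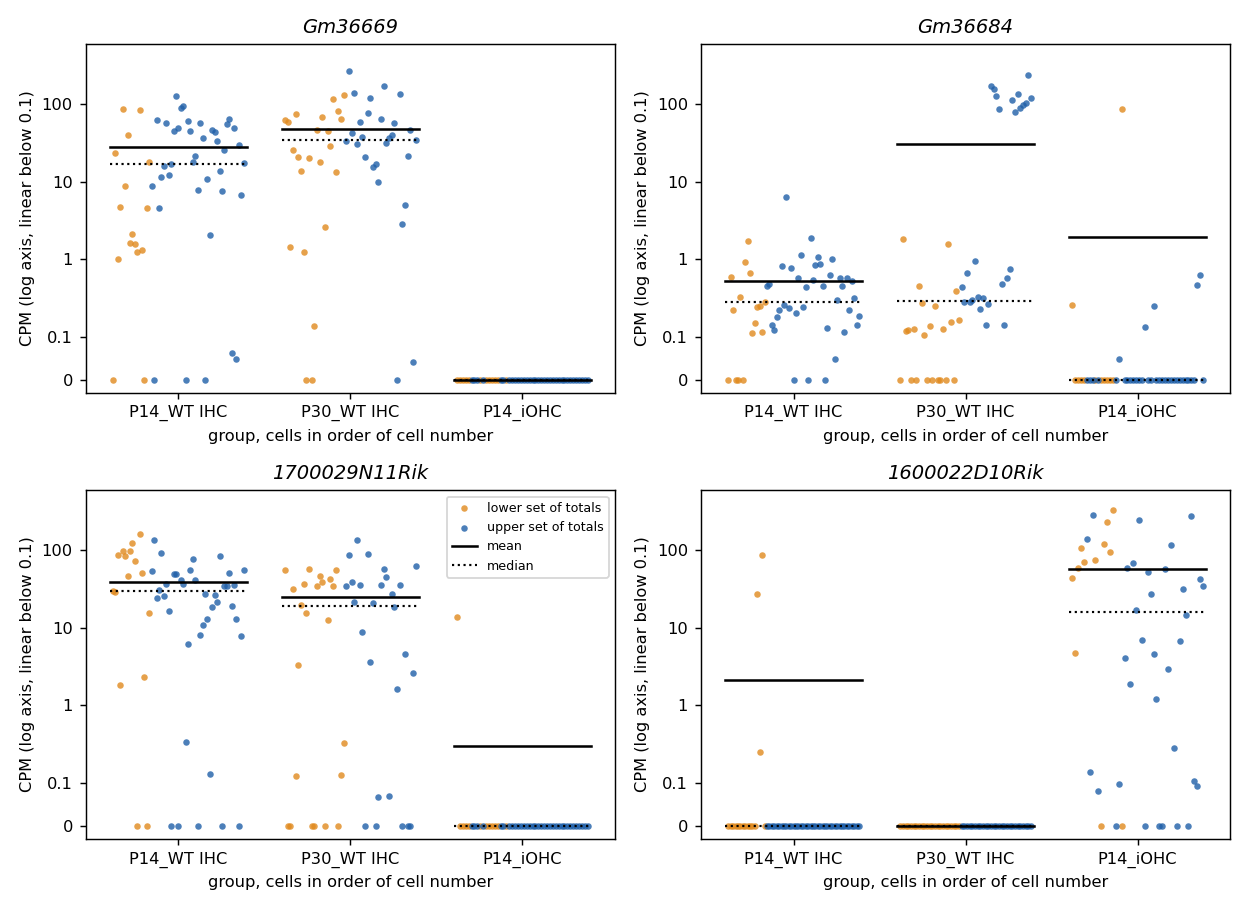
CPM of each transcript in each cell (log axis, linear below 0.1), with cells of a group placed in order of their number, orange points for the lower and blue for the upper set of totals, a solid line for the mean and a dotted one for the median. Gm36669 is at 0 in all 46 P14_iOHCs, 1600022D10Rik is at 0 in all 50 P30_WT IHCs, and the high Gm36684 values form a block of 12 P30_WT IHCs.

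*Gm36669* was counted in most IHCs at both ages and was not seen in any iOHC. It had at least 1 count in 50 of 55 P14_WT IHCs, or 90.9% (exact Clopper-Pearson 95% interval 80.05 to 97.0%), and in 47 of 50 P30_WT IHCs, or 94.0% (83.5 to 98.7%). It had 0 counts in all 46 P14_iOHCs, which allows a share of cells with a count of up to 6.52%, taken as 3 of 46 cells, while the exact interval reaches 7.71%. These intervals and limits cover the counting of cells only, taken as independent, and leave out differences between animals. In P14_WT IHCs the lowest level was 0, the median 17.1 and the highest 126 CPM, with a mean of 27.7 ± 29.9 (SD, n = 55 cells). In P30_WT IHCs the lowest was again 0, the median 34.1 and the highest 272 CPM, with a mean of 48.4 ± 52.7 (SD, n = 50 cells). All cells of the iOHC group lay below the 50 P14_WT IHCs that had the transcript, and the same level of 0 was shared by the 5 that had none. Taking 3 counts in each iOHC library as the limit, the mean was at least 125-fold lower in P14_iOHCs than in P14_WT IHCs. The 3 libraries labelled P14_iOHC with high *Tbx2* were also at 0. Between the ages the P30_WT mean was 1.75 times the P14_WT mean, a difference smaller than the SD over cells, and 5 P30_WT IHCs lay above every P14_WT IHC. That SD gives the spread of cells and not the error of a mean, so it does not show whether the ages differ.

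The level of *Gm36669* varied widely from cell to cell within each IHC group. The 5 highest cells held 31.4% of the summed CPM at P14 and 35.1% at P30, the coefficients of variation were 1.08 and 1.09, and 45 cells of each group had at least 10 counts. Between the sets of totals the means were 17.4 ± 28.5 (SD, n = 16) and 31.998 ± 29.7 CPM (SD, n = 39) at P14, and 39.1 ± 38.2 (SD, n = 23) and 56.3 ± 62.2 CPM (SD, n = 27) at P30. The iOHCs were at 0 in both sets. Cells with *Xist* and cells with the Y-linked genes *Ddx3y*, *Eif2s3y*, *Kdm5d* and *Uty* both held it, in 21 of 23 and 28 of 31 P14_WT IHCs.

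*1700029N11Rik* followed the same groups. It was found in 48 of 55 P14_WT IHCs, or 87.3% (75.5 to 94.7%), in 39 of 50 P30_WT IHCs, or 78.0% (64.0 to 88.5%), and in 1 of 46 P14_iOHCs, or 2.17% (0.0550 to 11.5%). The P14_WT IHCs ranged from 0 to 165 CPM with a median of 30.0 and a mean of 39.1 ± 37.999 (SD, n = 55 cells). The P30_WT IHCs ranged from 0 to 138 CPM with a median of 19.3 and a mean of 25.2 ± 29.2 (SD, n = 50 cells). The single iOHC was cell 1, with 107 counts or 13.7 CPM, which overlapped the wild-type cells: 38 P14_WT IHCs lay above it. In that cell *Tbx2* was at 268, *Slc17a8* at 586, *Otof* at 2307 and *Slc26a5* at 799 CPM, so transcripts of both hair cell types were counted there. The ratio of the means, P14_iOHC over P14_WT IHC, was -7.04 on the log2 scale with cell 1 and at most -7.49 without it. None of the 43 iOHCs left without cells 1, 18 and 44 had a count. Between the ages the P14_WT mean was 1.55 times the P30_WT mean, a difference smaller than the SD over cells at either age, and 1 P14_WT IHC lay above all P30_WT IHCs. Here too the SD is not the error of a mean.

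The 5 highest cells held 28.9% of the summed *1700029N11Rik* CPM at P14 and 34.6% at P30. At P14 the lower set of totals had the higher mean, 56.7 ± 49.97 CPM (SD, n = 16) against 31.9 ± 29.7 (SD, n = 39) in the upper set, while at P30 the sets had 21.2 ± 21.7 (SD, n = 23) and 28.6 ± 34.4 CPM (SD, n = 27). The difference between the ages was therefore larger in the lower set, -1.42 on the log2 scale (P30_WT over P14_WT), than over all cells, -0.63. Per length, in TPM computed from merged GENCODE exons, *1700029N11Rik* stood above *Gm36669* in the P14_WT IHCs, with 76.9 ± 75.05 against 18.7 ± 20.2 TPM (SD, n = 55 cells), and its mean lay at percentile 93.0 of the genes with a count, against 79.4 for *Gm36669*. At P30 the means were 47.2 ± 54.95 and 30.3 ± 33.1 TPM (SD, n = 50 cells), at percentiles 92.0 and 88.4.

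Since each was in most IHCs, *Gm36669* and *1700029N11Rik* overlapped in many of them, and nothing is read from the overlap itself. Both were counted in 43 of 55 P14_WT IHCs, 7 had *Gm36669* alone, 5 had *1700029N11Rik* alone and none had neither. At P30 both were counted in 37 of 50 cells, 10 had *Gm36669* alone, 2 had *1700029N11Rik* alone and 1 had neither. Their levels were not closely tied within a group, with Spearman's rho of 0.13 at P14 (n = 55 cells) and 0.32 at P30 (n = 50 cells). No p is given for any rho here, since cells of a group share preparation and depth.

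*1600022D10Rik* showed the opposite pattern. It had at least 1 count in 38 of 46 P14_iOHCs, or 82.6% (68.6 to 92.2%), in 3 of 55 P14_WT IHCs, or 5.45% (1.14 to 15.1%), and in 0 of 50 P30_WT IHCs, which allows a share of up to 6%, taken as 3 of 50 cells (exact upper limit 7.11%). The iOHCs ranged from 0 to 338 CPM, with a median of 16.04 and a mean of 58.0 ± 87.4 (SD, n = 46 cells). The mean of the P14_WT IHCs was 2.103 ± 12.4 CPM (SD, n = 55 cells) and came from cells 13, 14 and 15, with 229, 2 and 770 counts or 27.2, 0.248 and 88.2 CPM. *Slc26a5* and *Ikzf2* had 0 counts in these 3 cells, while *Slc17a8* ranged there from 1083 to 1303 CPM and *Otof* from 3784 to 5296. The groups overlapped through those 3 cells and through the 8 iOHCs without a count, and 10 iOHCs lay above every P14_WT IHC. The log2 ratio of the means, P14_iOHC over P14_WT IHC, was 4.79 with all cells and at least 7.89 without the 3 P14_WT IHCs. Without the libraries labelled P14_iOHC with high *Tbx2* it was 4.86, and 36 of 43 iOHCs had a count. The P30_WT mean was at least 7.69-fold lower than that of the P14_WT IHCs, a value that rests on cells 13 and 15.

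Among the iOHCs *1600022D10Rik* was the most uneven of the transcripts with a group median above 10 CPM. The 5 highest cells held 52.1% of the summed CPM, 17 cells had at least 50 CPM, 6 cells had 1 to 9 counts and 8 had none. Its level differed between the sets of totals, with a mean of 96.1 ± 100 CPM (SD, n = 12) and a median of 73.4 in the lower set, and a mean of 44.6 ± 79.8 (SD, n = 34) and a median of 5.69 in the upper set. It was seen in 19 of 20 iOHCs with Y-linked and without *Xist* counts at 1 CPM, with a median of 48.7 CPM, and in 16 of 21 with *Xist* and without the Y-linked genes, with a median of 1.21 CPM. Within the upper set these medians were 17.2 (n = 11) and 0.745 CPM (n = 20), and the lower set held only 1 iOHC with *Xist*. The part of animal, sex and set in this spread was not tested.

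**Figure D2:**
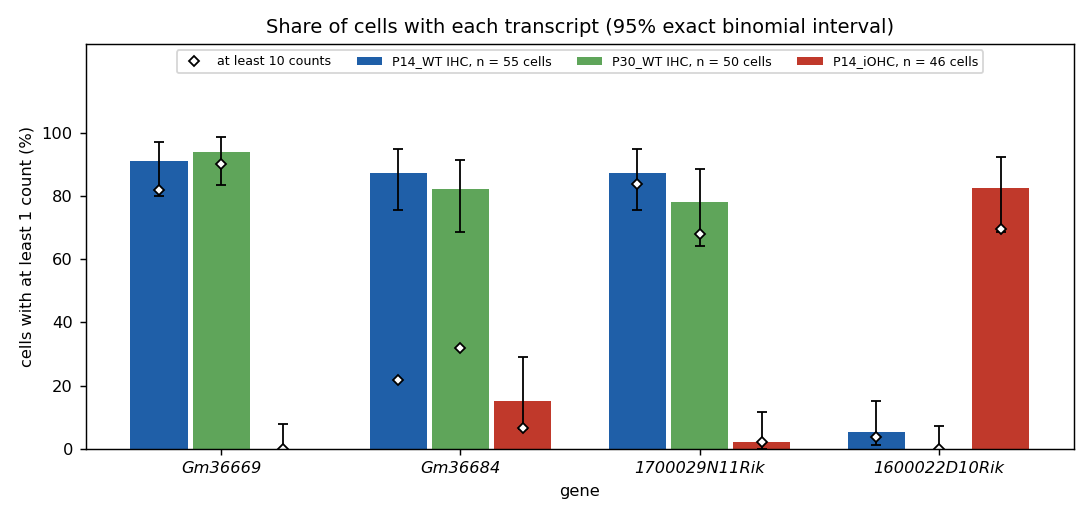
Share of cells with at least 1 count of each transcript in each group (bars, percent, with exact 95% intervals) and with at least 10 counts (diamonds). The bars of Gm36669 and 1700029N11Rik stand at 78.0 to 94.0% in the wild-type groups and at 0 and 2.17% in the iOHCs, and the diamonds of Gm36684 fall far below its bars.

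*Gm36684* had a different form of group pattern, a low count in most IHCs and a high level in few libraries. At least 1 count was found in 48 of 55 P14_WT IHCs, or 87.3% (75.5 to 94.7%), in 41 of 50 P30_WT IHCs, or 82.0% (68.6 to 91.4%), and in 7 of 46 P14_iOHCs, or 15.2% (6.34 to 28.9%). Only 5 of the P14_WT IHCs reached 1 CPM, and their median was 0.279 and their highest 6.30 CPM, with a mean of 0.527 ± 0.889 (SD, n = 55 cells). The P30_WT IHCs had a median of 0.287 CPM, the lowest was 0 and the highest 239, and the mean was 30.6 ± 58.5 (SD, n = 50 cells). The 12 cells named above had 78.8 to 239 CPM, or 1284 to 5860 counts, and the other 38 had at most 1.82 CPM, with a mean of 0.313 ± 0.401 (SD, n = 38 cells), so no P30_WT IHC lay between 1.82 and 78.8 CPM. The log2 ratio of the means, P30_WT over P14_WT, was 5.86 with all cells and -0.75 without the 12, and the direction thus rests on them.

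In the iOHCs *Gm36684* had a median of 0 and a mean of 1.92 ± 12.8 CPM (SD, n = 46 cells). Cell 18 had 787 counts or 86.6 CPM, and the other 45 had at most 0.626 CPM, with a mean of 0.0394 ± 0.125 (SD, n = 45 cells). In cell 18 *Tbx2* was at 264 CPM, *Ikzf2* had 0 counts, *Slc17a8* was at 935 and *Slc26a5* at 514 CPM, and neither *Xist* nor the Y-linked genes reached 1 CPM. The log2 ratio, P14_iOHC over P14_WT, was 1.87 with that cell, -3.74 without it and -4.43 without cells 1, 18 and 44. Because most of the IHC counts were low, the shares of cells depended on the limit: with at least 10 counts they were 21.8% of P14_WT IHCs, 32% of P30_WT IHCs and 6.52% of P14_iOHCs.

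The 12 libraries were alike in their sex-linked genes, which had no part in choosing them. All 12 had *Xist*, at 75.6 to 588 CPM, and the summed Y-linked genes were at most 0.271 CPM. *Xist* alone did not mark them, since 9 other upper-set P30_WT IHCs had *Xist* without Y-linked genes and held 2 to 12 counts of *Gm36684*, at most 0.747 CPM. Genes picked for their likeness to *Gm36684* were high there by that choice. The first of them over all cells was the processed pseudogene *Rps2-ps6* (Pearson's r of log2(CPM + 1) 0.72, and -0.11 over the 138 cells left without the 12 and iOHC cell 18), which had 0.774 to 10.7 CPM in the 12 and at most 1.68 CPM in the other P30_WT IHCs. *Atp6v0c-ps2*, another pseudogene, had 9.52 to 144 CPM in the 12 and at most 36.4 in the others, so both overlapped the other cells. Both share sequence with their parent genes, so their counts are uncertain. Whether the 12 cells came from 1 animal or 1 preparation is not given in the labels, and its part was not tested. Within this group Spearman's rho between *Gm36669* and *Gm36684* was -0.02 (n = 50 cells).

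**Figure D3:**
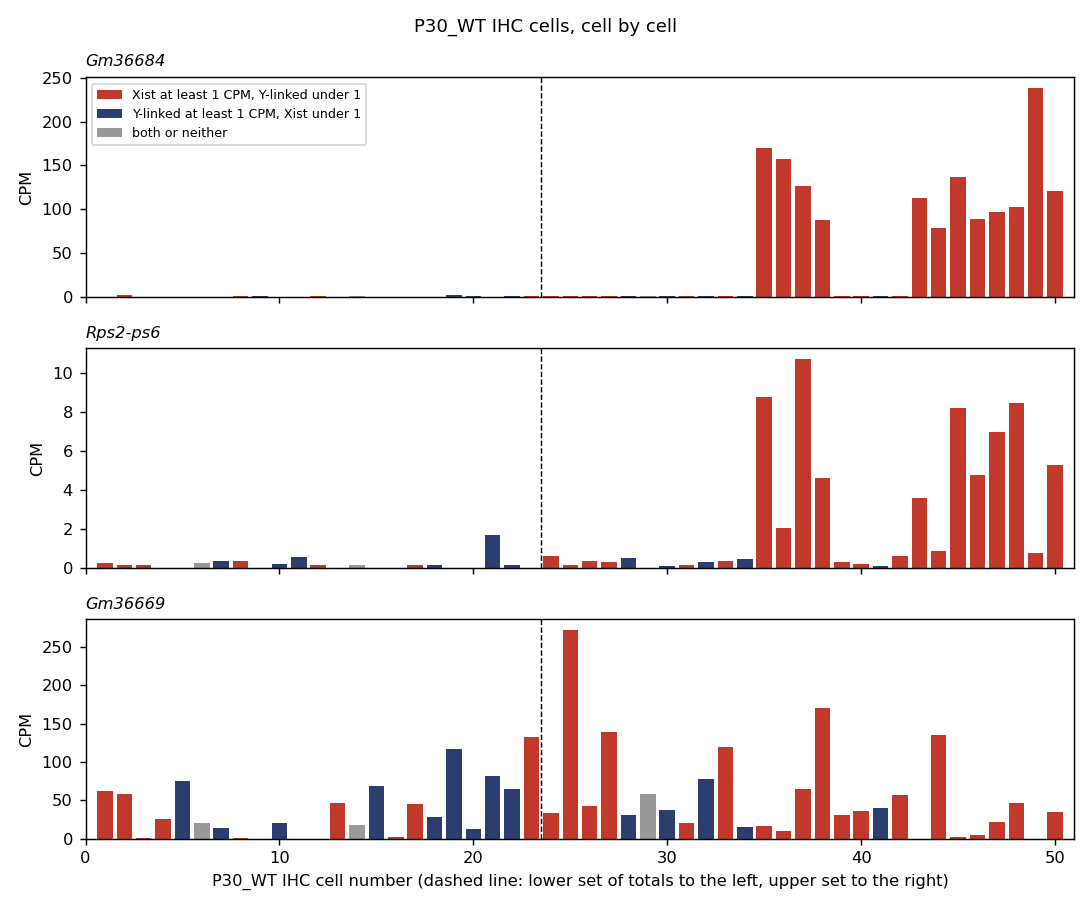
CPM of Gm36684, Rps2-ps6 and Gm36669 in each P30_WT IHC by cell number, with red bars for cells with Xist, blue for cells with Y-linked genes and grey for both or neither, and a dashed line between the sets of totals. The Gm36684 bars stand in cells 35 to 38 and 43 to 50, all red, and the highest Rps2-ps6 bars are among those cells, while Gm36669 is spread over the whole row.

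Against the background of all genes, 2 of the 4 transcripts were past a fold limit of 2 on the log2 scale downwards in P14_iOHCs against P14_WT IHCs, *Gm36669* and *1700029N11Rik*. In that direction 8.42% of the 15956 genes that reached a mean level of 1 CPM in one of the groups were past it. Upwards it was 1 of the 4, *1600022D10Rik*, where 13.5% of genes were past the limit. Among the 3142 genes with a Gm number or RIKEN clone name the shares were 18.7% downwards and 17.4% upwards. Counting all cells, with 0.1 CPM added to each mean, *Gm36669* ranked 4 from the lowest ratio and *1700029N11Rik* ranked 18. In P30_WT IHCs against P14_WT IHCs, which share the P14_WT cells with the first comparison, *Gm36684* was past the limit upwards, with 6.7% of 15436 genes, and *1600022D10Rik* downwards, with 6.96%. Both of these rest on the few libraries named above. The transcripts were picked from these contrasts, so nothing is read from the counts.

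Near on-off patterns were rare in the table. With a count in at least 80% of the cells of one group and in at most 5% of the other, 3 genes were on in P14_WT IHCs and off in P14_iOHCs (0.0106% of 28368 genes). They were *Gm36669*, *1700029N11Rik* and *Itgb2l*, an integrin beta chain gene named here after its values were seen, which was in 44 of 55 and 1 of 46 cells. Among the 10957 genes with placeholder names this was 0.0183%. In the opposite direction 14 genes passed (0.0494%), among them *Slc26a5* and *Ikzf2*, and 0.00913% of the genes with placeholder names. *1600022D10Rik* was just outside, through its 3 P14_WT IHCs. Between the ages no gene was on only at P30_WT and 1, the angiogenin gene *Ang4*, also named after its values were seen, only at P14_WT (0.00326% of 30708). None of the 4 transcripts was. With at least 3 counts as the limit, 8 genes were on in P14_WT IHCs and off in P14_iOHCs. The 4 transcripts were chosen for such a pattern, so nothing is read from their place among these genes.

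**Figure D4:**
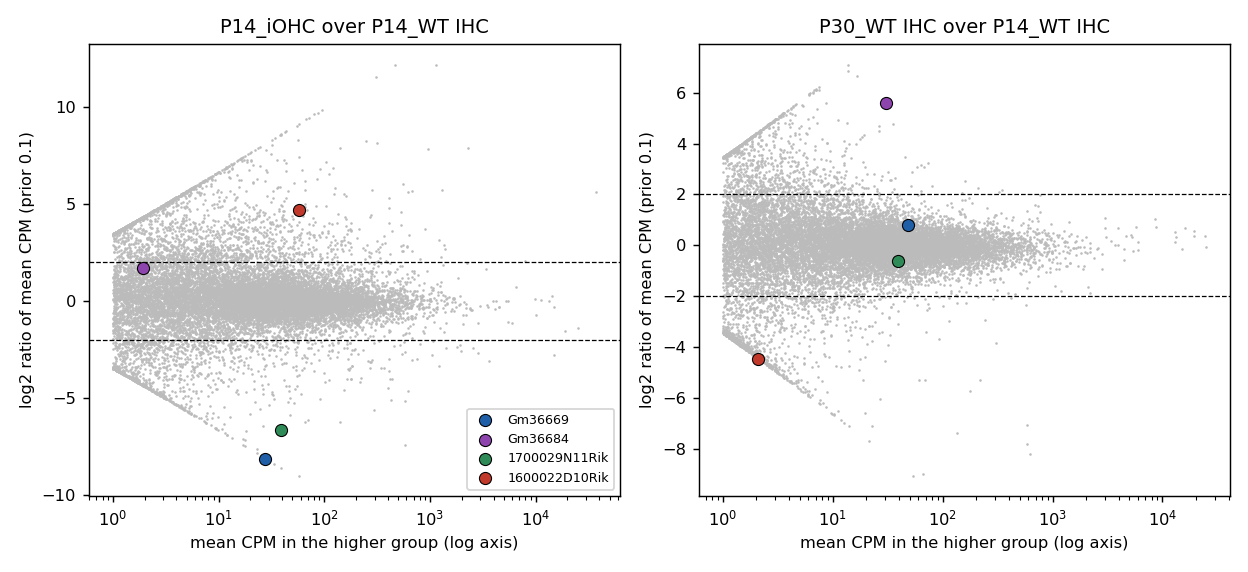
Log2 ratio of mean CPM (0.1 CPM added to each mean) against the mean in the higher group on a log axis, for genes with at least 1 CPM in either group, with the 4 transcripts in colour and dashed lines at the fold limit in both directions. Gm36669 and 1700029N11Rik lie at the lower edge of the comparison of P14_iOHC with P14_WT IHC, and Gm36684 lies near the upper edge of the comparison of ages.

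Position had played no part in choosing the transcripts, and the nearest genes were read next. Distances are counted from the RefSeq spans. These end at chr6:16788512 for *Gm36669* and chr13:44457567 for *1700029N11Rik*, before the GENCODE ends given above. The nearest gene downstream of *Gm36669*, 42415 bases away, is *Tfec*, a transcription factor of the MiT family. *Tfec* had a count in 21 of 55 P14_WT IHCs, with 11.9 ± 23.8 CPM (SD, n = 55 cells), in 31 of 50 P30_WT IHCs, with 22.6 ± 42.3 CPM (SD, n = 50 cells), and in 0 of 46 P14_iOHCs. The order of its group means was thus that of *Gm36669*. Of the 28368 genes with a count in either P14 group, 24926 had one in P14_iOHCs, so being absent there is not particular to *Tfec*. All 21 and all 31 of the cells with *Tfec* also had *Gm36669*, which most cells of these groups had, and rho between the levels was 0.47 at P14 and 0.25 at P30. The pseudogene *Gm5721* farther downstream was in 2, 4 and 0 cells of the P14_WT IHC, P30_WT IHC and P14_iOHC groups. Upstream, *Gm36503* and *Gm36406* had no count in any cell, and the nearest protein-coding gene, *Mdfic*, 975355 bases away, had at most 6.67 CPM in any cell.

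Around *1700029N11Rik*, *Gm27036*, *Gm27007* and *Gm34084* had counts in wild-type cells and none in iOHCs, while the nearest protein-coding genes did not follow that pattern. As for *Tfec*, a lack of counts in iOHCs is not particular to these genes, each of which was in a minority of the wild-type cells. *Gm27036*, which covers the start window, had a count in 16 of 55 P14_WT IHCs, 14 of 50 P30_WT IHCs and 0 of 46 P14_iOHCs, with means of 9.36 ± 20.2 (SD, n = 55) and 11.1 ± 25.1 CPM (SD, n = 50) in the wild-type groups. *Gm27007* was in 18, 15 and 0 cells and *Gm34084*, 14856 bases downstream of the RefSeq end and closer to the GENCODE end, in 7, 9 and 0 cells. *Gm34020*, at chr13:44467020-44470727, overlaps the GENCODE span and was not in the count table. Spearman's rho of *1700029N11Rik* with *Gm27036* was 0.30 at P14 and 0.20 at P30. *Gm33958* and *Gm29676* upstream had no count. The nearest protein-coding gene downstream, *Jarid2*, a subunit of Polycomb repressive complexes, was 273207 bases away and was read in all groups, with 78.4 ± 70.1, 60.3 ± 75.6 and 67.4 ± 95.8 CPM (SD, n = 55, 50 and 46 cells) in P14_WT IHCs, P30_WT IHCs and P14_iOHCs. Upstream, *Cd83*, a surface protein gene, was in 5 iOHCs, 0 P14_WT IHCs and 2 P30_WT IHCs.

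The RefSeq span of *Gm36684* contains the sperm motility kinase genes *Smok2a* and *Smok2b*, the long non-coding RNA *Gm10512* and the small nuclear RNA *Gm26500*. In the P30_WT IHCs these 4 had at most 0.234 CPM in any cell. The long non-coding RNAs *Gm36798* and *Gm36589*, which also overlap the span, were not in the count table. *Gm10512* reached 15.5 CPM in 1 iOHC, cell 26, in which *Gm36684* had 2 counts or 0.132 CPM. The flanking *Unc93a* and *Gpr31c* had at most 0.249 and 0.155 CPM in that group. *Tcp10c*, of the t-complex, had 35 to 356 counts in 4 of the 12 cells and at most 3 counts in the other 38 P30_WT IHCs. Its highest level there was 21.9 CPM, and 1 iOHC reached 36.6 CPM.

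The genes most like each transcript were ranked over all cells, across the groups. For *Gm36669* they were *Ripor3*, the IHC marker *Slc7a14*, the kinase gene *Rps6ka2*, the anoctamin gene *Ano4* and the kinase gene *Prkd1*, with Pearson's r of log2(CPM + 1) from 0.65 to 0.71. For *1700029N11Rik* they were *Ntf3* (neurotrophin-3), *Sema5b* (a semaphorin), *Ano4*, *Rps6ka2* and *Phgdh* (an enzyme of serine synthesis), with r from 0.61 to 0.65. For *1600022D10Rik* they were *Ikzf2*, *Slc26a5*, *Hsd11b1* (the enzyme that activates glucocorticoids), *Phldb1* and *Lrrc30*, with r from 0.69 to 0.72. After *Rps2-ps6*, those of *Gm36684* were *Gm11249*, *Atp6v0c-ps2*, *Etv5* and *Tmod2*, with r from 0.49 to 0.54. These values hold the differences between groups. Within the IHC groups rho ran from -0.14 (*Slc7a14*, P30) to 0.25 (*Prkd1*, P30) for the 5 genes of *Gm36669*, and from -0.10 (*Phgdh*, P14) to 0.41 (*Sema5b*, P30) for those of *1700029N11Rik*. For the 5 genes of *1600022D10Rik* rho within the iOHCs was 0.30 to 0.43. For those of *Gm36684* within the P30_WT IHCs it was 0.51 to 0.63, and 0.02 to 0.36 in the 38 cells left without the 12.

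Within the IHC groups, the 5 genes highest with *Gm36669* or with *1700029N11Rik* at P14 shared 0 genes with the 5 highest at P30. Genes with a count in at least 50% of the cells were compared, 7355 at P14 and 7031 at P30. The highest rho with *Gm36669* at P14 was that of *Zfp868*, a zinc-finger gene (0.50, but 0.02 in the lower set), followed by *Mafk*, *Rfx3*, *Psmc3* and *Xpr1* (0.43 to 0.46), and the lowest were *E2f6* (-0.55), *Pex14* and *Prpsap2*. At P30 the highest were *Cnot3*, a gene of the CCR4-NOT deadenylase complex (0.55), the potassium channel gene *Kcnh8* (0.50), *Tcaf1*, *Nsmce2* and *Fam117a*, and the lowest were *Arl4a* (-0.53), *Spred2* and *Cd82*. The rho of *Zfp868* was -0.29 at P30, and those of *Cnot3* and *Kcnh8* at P14 were 0.08 and -0.10. Of the 100 highest genes at each age, 1 was shared for *Gm36669* and 3 for *1700029N11Rik*. The ages had 6678 compared genes in common. The number that unrelated lists would share was not worked out, so nothing is read from this overlap.

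For *1700029N11Rik* the highest at P14 were *Psmd5* (0.47), *Rpl3-ps1*, *Cox7a2l*, *Cttn* and *Zfp40*, and the lowest *Rpl27a-ps4* (-0.47), *Usp5* and *Mydgf*. At P30 the highest were *Nos1ap* (0.54), whose protein binds neuronal nitric oxide synthase, *Zmynd11*, *Abhd16a*, *Samd1* and *Sema6a*, and the lowest *Yju2* (-0.51), *Pvalb* (-0.47), which encodes a calcium buffer of hair cells, and *Map3k3*. In the other age group *Nos1ap* had rho of -0.07 and *Psmd5* of -0.11. With 98% of the genes between -0.31 and 0.33 at P14, these are the tails of a wide spread over cells.

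The 5 genes highest with *Gm36684* at P14 were *Rps6ka2* (0.52), *Klhl29*, *Spock1*, *Hipk2* and *Polr2a* (0.47), and the lowest were *Akap9* (-0.58), *Rps12* and *Nsrp1*, over a range of levels that lay mostly under 1 CPM. At P30 the highest were *Rsrp1* (0.72), the cystine transporter gene *Slc7a11*, *Rpl19-ps7*, *Ndufa2* and *Rbm3*, and the lowest *Rpsa* (-0.68), *Rtn4* and *Trmt112-ps2*. The level of *Gm36684* at P30 had a rho of 0.69 with the total count, and given the total and the number of detected genes the rho of *Rsrp1* was 0.44 and that of *Slc7a11* 0.24. Without the 12 libraries they were 0.64 and 0.55 (n = 38 cells), and within the upper set 0.36 and 0.13 (n = 27 cells). Of the 100 highest genes at each age 2 were shared, and nothing is read from this number either.

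In the iOHCs, the highest rho with *1600022D10Rik* were those of *Tmem229a* (0.59), *Ciapin1* (0.57), a gene of iron-sulfur protein assembly, *Lancl1* (0.55), *Prpf4b* (0.52) and *Ebp* (0.52), and the lowest were *Ndufab1-ps* (-0.58), *Pcmtd1* (-0.58) and *Atp5l-ps2* (-0.57). That of *Tmem229a* was 0.56 in the lower set (n = 12) and 0.59 in the upper (n = 34), while that of *Lancl1* was -0.03 and 0.65. The rho of *Ndufab1-ps* was -0.82 in the lower and -0.28 in the upper set. *Ndufab1-ps* and *Atp5l-ps2* had low means, 2.46 and 0.324 CPM, the latter about what 3 counts are worth. The OHC markers *Slc26a5*, *Ikzf2*, *Sri*, *Ocm* and *Lbh* were on the positive side, with rho of 0.43 for *Slc26a5* and *Sri*, 0.35 for *Ikzf2*, 0.27 for *Ocm* and 0.17 for *Lbh* (n = 46 cells). The 6 measured IHC markers lay between -0.34 (*Otof* and *Fgf8*) and -0.02 (*Calb2*). The sum of the supporting-cell markers, mostly *Fbxo2*, had -0.07, and the measured single ones lay between -0.26 (*Otogl*) and 0.11 (*Fbxo2*). The iOHCs without a count of *1600022D10Rik* still had *Slc26a5*, at 309.6 to 1383 CPM, and the 17 with at least 50 CPM had 640 to 2787 CPM, so the ranges overlapped.

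**Figure D5:**
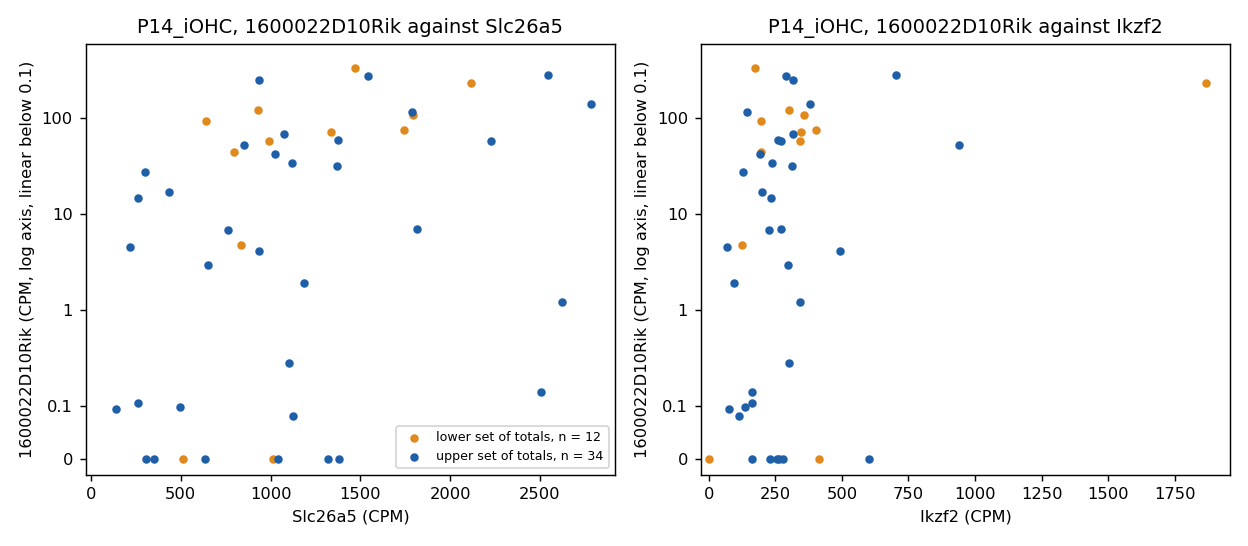
1600022D10Rik (CPM, log axis, linear below 0.1) against Slc26a5 and Ikzf2 (CPM, linear axes) in the 46 P14_iOHCs, by set of totals. Cells at 0 lie between 309.6 and 1383 CPM of Slc26a5, and the 17 cells with at least 50 CPM lie between 640 and 2787 CPM.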

How the data were processed

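Single cells were amplified with a Smart-Seq HT kit and sequenced in pairs. Per the labels and methods, the authors used FastQC 0.11.9, Trimmomatic 0.39, HISAT2 2.1.0 (GRCm38, mm10), HTSeq 0.10.0 and StringTie 1.3.5. The values the authors deposited are raw counts per gene, without normalization. The annotation, strandedness and treatment of multiply aligned reads are not given in the sources used here. Columns were matched to samples by title, and a comparison of 3745 pairs within groups found 0 identical libraries.

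CPM used the library total over all genes. Since each sample is 1 cell and no animal is named, no test was run: means ± SD over cells, exact 95% intervals, log2 ratios and Spearman's rho are descriptions. The DESeq2 test of the authors over cells was not repeated. A ratio against a group at or under 3 counts in every library is a bound at 3 counts per library. The background used 0.1 CPM added to each mean and a mean of at least 1 CPM in the higher group. TMM factors came from edgeR 4.0.16 in R 4.3.3 and are an alternative only. TPM used GENCODE M21 exons, which matched 53292 symbols; RefSeq matched 38990. Python 3.11.15, numpy 2.4.6, scipy 1.17.1, pandas 2.3.3 and matplotlib 3.10.9 were used, with seed 20351, and the ranking and correlation steps were tested on simulated counts.

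Named genes were, per transcript and group where it was in at least 50% of cells, the 5 highest and 3 lowest by rho among non-placeholder, non-mitochondrial genes in at least 50% of cells, the 5 most alike over all cells (among genes in at least 10 cells), 2 neighbours per side with the nearest protein-coding ones, and fixed marker lists. The glia, neuron, fibroblast, blood, immune and dissociation lists were also read: their summed medians in P14_WT IHC, P30_WT IHC and P14_iOHC were 0, 0 and 27.7 CPM for glia, 234, 233 and 83.0 for neuron, 86.6, 78.2 and 116 for fibroblast, 0, 7.10 and 0 for blood, 16.7, 0.0355 and 0 for immune, and 1263, 2238 and 1335 CPM for dissociation genes. The transcripts and the lists were chosen with earlier results of these data known. A further listed marker is not reported here.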

Additional observations from a re-analysis of the deposited data

How the results depend on the processing

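No paired analysis was possible because the results come from no test and the cell numbers only name cells. The 78 alternatives for the mean levels stayed within 1 SD over cells, but that SD is about as large as the mean or larger, so this is no sign of stability: *Gm36684* at P30_WT went from 30.6 to 0.252 CPM in the lower set, and in P14_iOHC from 1.92 to 0.0446 (upper) and 7.24 CPM (lower). Of the alternatives for the shares, 58 of 72 stayed within their intervals. Moved shares were mostly those of *Gm36684*. In P14_WT IHCs they were 65.5% with at least 3 counts, 21.8% with at least 10, 9.09% with at least 1 CPM, 67.3% after thinning to 4326416 counts and 75% in the lower set. In P30_WT IHCs they were 58%, 32% and 28% at those limits, 60.9% in the lower and 100% in the upper set, and in P14_iOHCs 2.17% at 1 CPM. The share of P14_iOHCs with *1700029N11Rik* was 0% in the upper set, and that of P14_WT IHCs with *1600022D10Rik* was 18.8% in the lower and 0% in the upper set.

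*Gm36684* ratios turned: P14_iOHC over P14_WT was -3.75 in the upper set and -3.74 without P14_iOHC replicate 18, -4.43 without cells 1, 18 and 44 (4.37 in the lower set), and P30_WT over P14_WT was -0.47 in the lower set and -0.75 without the 12 P30_WT IHC libraries (6.56 in the upper set). Other log2 ratios moved in size only. P14_iOHC over P14_WT in the lower set was at most -5.60 for *Gm36669*, -5.64 for *1700029N11Rik* and 3.73 for *1600022D10Rik*, and for the last at least 7.96 in the upper set and at least 7.89 without P14_WT IHC cells 13 to 15. P30_WT over P14_WT in the lower set was -1.42 for *1700029N11Rik* and at most -4.22 for *1600022D10Rik*, for which no ratio was left without cells 13 to 15 or in the upper set. TMM scaling moved the median of all genes by 0.02 and 0.08 (log2) and changed no direction of the 4 transcripts. The removals of named cells or of the 12 libraries were chosen after seeing the data.

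Counts of genes past the fold, higher and lower in P14_iOHC, were 2155 and 1344, 3150 and 2300 without a filter, 1052 and 475 at a mean of 5 CPM, and 3724 and 2644 at a log2 ratio of 1. Between the ages they were 1034 higher and 1074 lower at P30_WT, 1732 and 2120 without a filter, 218 and 272 at 5 CPM, and 2252 and 2231 at a ratio of 1. On-off genes were 8 lower in P14_iOHC at 3 counts, and 3 at 3 counts and 2 after thinning for the ages. Of the alternatives for the correlations, 243 moved rho by less than 0.2, 44 by more, and 1 turned its sign (*Lancl1* with *1600022D10Rik*, -0.028 in the lower set). Among those that moved, *Zfp868* with *Gm36669* was 0.02 in the lower and *Tcaf1* 0.16 in the upper set, and the 5 highest with *Gm36684* at P30_WT were 0.08 to 0.36 within the sets. Totals limit what can be seen to about 0.120 to 0.693 CPM for 3 counts.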
